A study of Drosophila melanogaster with 2 samples.

Results

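The genes of insulin signalling, of the TOR kinase and of autophagy were examined for binding by CG11617, a homeobox protein of Drosophila melanogaster. Chromatin immunoprecipitation with sequencing (ChIP-seq) had been done with an antibody against GFP on whole adults, males and females pooled, of unknown age. The flies were a transgenic line that stably expresses CG11617 fused to GFP at its C terminus, and every sample carried this transgene. There was 1 group with 2 biological replicates, numbered 2 and 3. A possible control experiment that the labels name was not analysed here. Whole flies mix many cell types, so a weak signal in many cells and a strong signal in few cells cannot be told apart.

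The set holds 41 of 13945 protein-coding genes. It comprises the 20 genes whose symbol is Atg followed by a number and 21 further genes named one by one. They fall by role into 9 genes of insulin signalling, 8 genes of the TOR pathway and 24 genes of autophagy. The annotation lists Tor as mTor and Vps34 as Pi3K59F, which were matched by synonym. For each gene the highest deposited signal within 500 bp of a transcription start site (TSS) was taken from 4 peak lists on the dm6 genome build. One list came from the pooled replicates, one from each replicate, and the last was the authors' optimal set by irreproducible discovery rate (IDR), a filter that keeps peaks ranked alike in both replicates. A peak of that optimal set is called an IDR peak, and a gene with its summit in this window is said to have a promoter peak. IDR peaks carry the pooled signal. The signal is the authors' own score per peak, and it is not scaled between lists. Values in replicate 2 and replicate 3 were therefore not averaged, and ranks within each list are given beside them.

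In insulin signalling a peptide ligand activates a receptor tyrosine kinase at the cell surface, and adaptor proteins recruit a lipid kinase whose product activates the kinases Pdk1 and Akt. Akt restrains the transcription factor foxo and the Tsc1 and gig complex, and release of the small GTPase Rheb activates TOR, the kinase that promotes growth and protein synthesis. When nutrients are short TOR activity falls and autophagy, in which membranes enclose cytoplasm for breakdown in lysosomes, is released from inhibition.

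Of the 41 genes, 28 (68.3%) had an IDR peak within 500 bp of a TSS, beside 30% of all protein-coding genes. By group this was 7 of 9 insulin signalling genes (77.8%), 4 of 8 TOR genes (50%) and 17 of 24 autophagy genes (70.8%). A pooled candidate entry of any strength lay at 36 of the 41 (87.8%), beside 61.6% of all genes, and 28 of those 36 (77.8%) passed the IDR filter, beside 48.6% of all genes with such an entry. The groups are small and were compared by counts alone: with peak lists from 1 group there is no test between samples, and no test of the set was made.

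**Figure D1:**
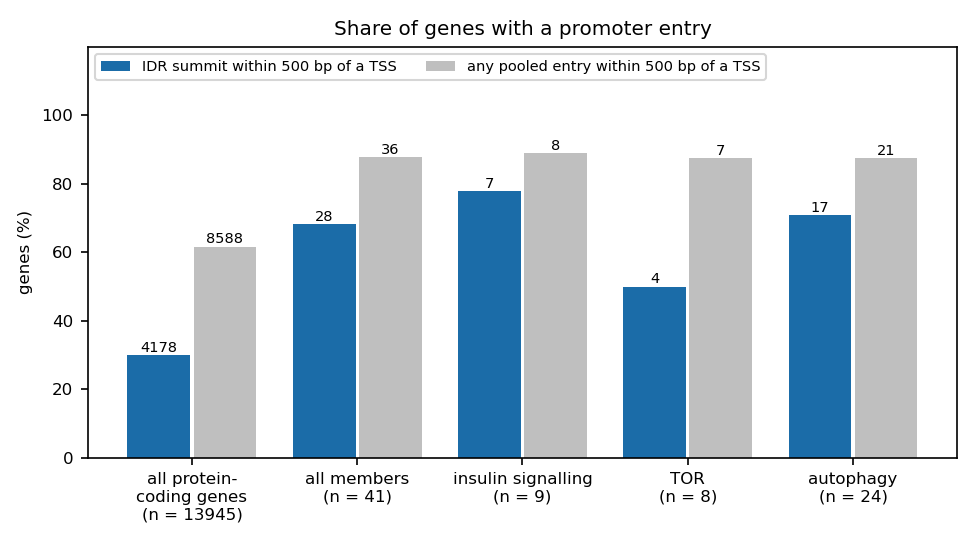
Share of genes, in percent, with an IDR summit (blue) or any pooled entry (grey) within 500 bp of a TSS, for all protein-coding genes, the 41 genes together and the 3 role groups. Numbers above the bars are gene counts, and each blue bar of the set stands above the 30% of all protein-coding genes.

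Genes with several TSSs have more chances of a peak, so both kinds were counted apart. Of members with 1 TSS, 20 of 29 (69.0%) had a promoter peak, beside 23.6% of all genes with 1 TSS. Of members with more than 1 TSS, 8 of 12 (66.7%) did, beside 47.5% of all such genes. The members' peaks were of ordinary strength. Their highest promoter signal had a median of 334, with quartiles at 252 and 417, whereas all 4178 genes with a promoter peak had a median of 309 and quartiles at 215 and 505. Only 6 of the 28 lay above the upper quartile of all genes. The IDR list starts at a signal of 163, and the members just inside it were Vps34 (182) and Atg1 (184), while Mitf (158) and chico (153) lay just outside.

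**Figure D2:**
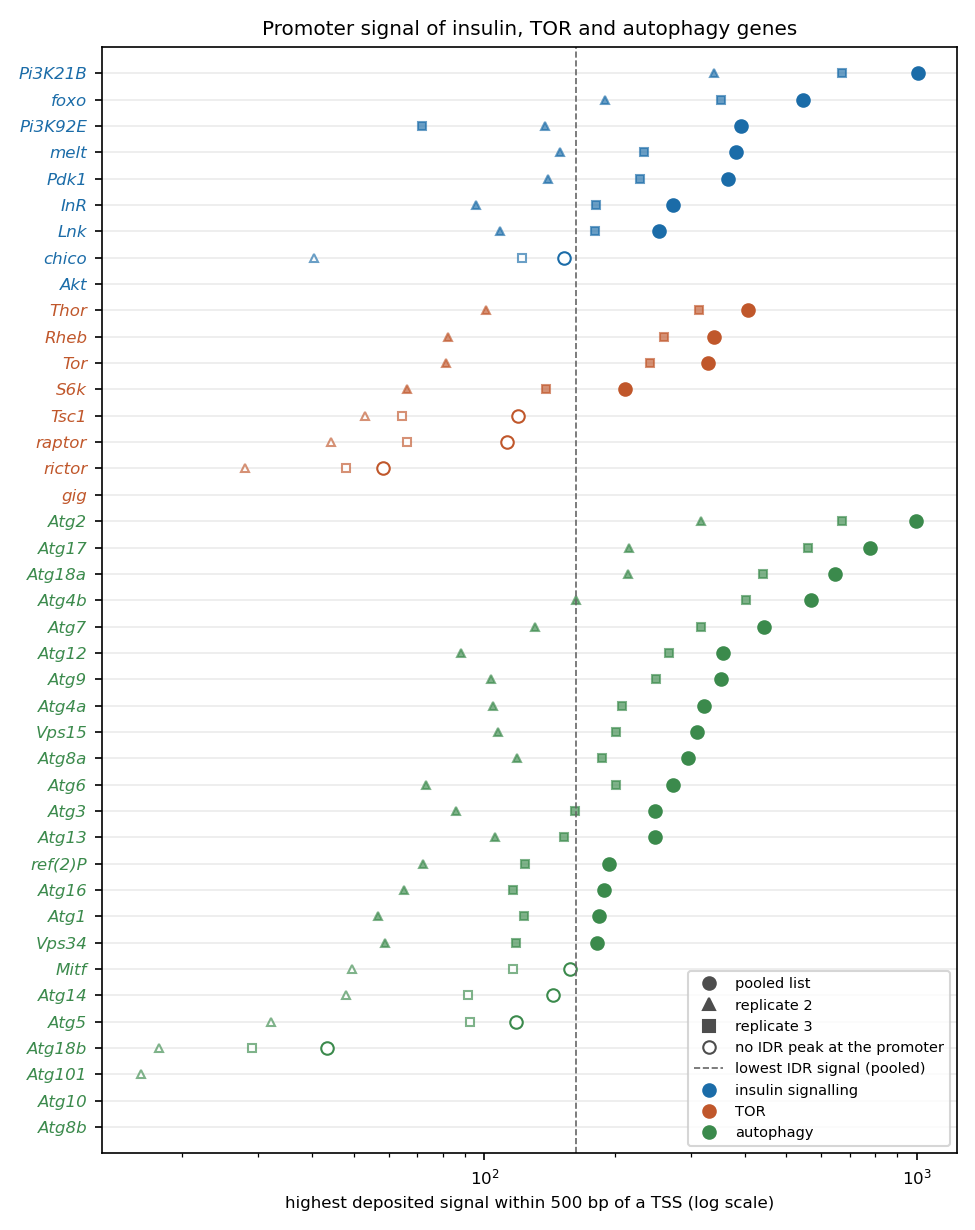
Highest signal (log scale) within 500 bp of a TSS for each of the 41 genes in the pooled list (circles), replicate 2 (triangles) and replicate 3 (squares), coloured by role group. Filled symbols mark genes with an IDR peak at the promoter, the dashed line the lowest pooled signal of the IDR list, and genes without a symbol have no entry. Pooled values of filled genes run from 182 at Vps34 to 1008 at Pi3K21B. The replicate 3 square of Pi3K92E is a weaker neighbouring entry, because its main summit there fell outside the window.

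Among insulin signalling genes the strongest promoter peak was at Pi3K21B, which encodes the regulatory subunit of the lipid kinase. Its pooled signal was 1008, with 340.3 in replicate 2 and 673 in replicate 3, and it ranked 212 and 247 in those lists of 30000. The peak spans chr2L:297410-298190, its summit lies 149 bp upstream of the TSS in intergenic sequence, and a lower summit (344) lies 57 bp downstream in the 5' UTR. Pi3K92E, the gene of the catalytic subunit, had a weaker peak with a signal of 393 (138 in replicate 2 and 256 in replicate 3), 484 bp downstream of the TSS in the 5' UTR (chr3R:20634034-20634392). In replicate 3 the summit of this Pi3K92E peak fell beyond 500 bp. The gene's highest replicate 3 entry within 500 bp of the TSS (71.6) ranked 9830, outside the 5777 highest. Both partners of this kinase thus had a promoter peak, on opposite sides of their TSSs.

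The transcription factor gene foxo had the next strongest signal of the group, 547, with 189.8 in replicate 2 and 352 in replicate 3. Its summit lies 285 bp upstream of the TSS (chr3R:14056073-14057099), and a second, intronic IDR summit (200.1) lies 4211 bp downstream. The gene melt, whose product binds membranes and modulates both foxo and TOR, had a peak 255 bp upstream (383, with 149 and 234 in replicates 2 and 3, chr3L:7134005-7134455). Pdk1, the kinase that activates Akt, had 3 promoter summits. The highest (366, with 140.2 and 228) lies 203 bp upstream of an internal TSS (chr3L:131312-132048), where a further summit (231) lies 3 bp upstream. The third (255, with 58.5 and 199) lies 141 bp downstream of the first TSS.

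The receptor gene InR had a promoter summit 2 bp from its TSS (274, with 95.7 in replicate 2 and 181 in replicate 3, chr3R:21619158-21619522). A much stronger IDR peak lay in an intron of InR, 658 bp upstream of an internal TSS (chr3R:21590449-21591071), with a pooled signal of 813 and ranks of 548 and 339 in replicates 2 and 3. Further intronic summits of InR lay 5498 bp downstream (269) and 13370 bp upstream (227.5) of its nearest own TSS. Lnk, an adaptor of the receptor, had a peak 251 bp downstream of its TSS in the 5' UTR (253, with 109 and 180.4). The entry of replicate 3 has its summit at 225 bp, but that of replicate 2 lies 415 bp downstream of the TSS, away from the pooled summit.

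Of the 2 insulin signalling genes without a promoter peak, chico, which encodes the insulin receptor substrate, had a pooled entry 77 bp downstream of the TSS whose signal of 153 was 93.7% of the lowest IDR signal. The highest chico promoter entry of replicate 2 had a signal of 40.2 (rank 8520) and lies 375 bp downstream of the TSS, away from the pooled summit. That of replicate 3 had a signal of 122 (rank 5220), so only replicate 3 placed chico among its 5777 highest entries. The kinase gene Akt had no entry within 500 bp of a TSS in any of the 4 lists. An IDR summit lay in an intron of Akt 681 bp downstream of its nearest TSS (chr3R:16099747-16100004, pooled signal 251, with 72.9 and 168).

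The sequence at the summits of the 3 strongest upstream peaks of the group is shown because their base composition differs. Each run covers the summit and 50 bases on either side, read on the strand of the gene from the Release 6 genome, and capitals mark any motif of the list searched (given with the motif results). They lie at chr2L:297681-297781 (Pi3K21B, plus strand), chr3R:14056610-14056710 (foxo, plus strand) and chr3L:7134211-7134311 (melt, plus strand), with a GC content of 23.8%, 26.7% and 38.6%.
Pi3K21B: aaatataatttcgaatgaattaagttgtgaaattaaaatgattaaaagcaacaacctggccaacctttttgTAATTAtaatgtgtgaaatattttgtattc
foxo: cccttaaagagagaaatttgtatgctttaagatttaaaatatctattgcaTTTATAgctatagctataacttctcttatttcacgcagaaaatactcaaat
melt: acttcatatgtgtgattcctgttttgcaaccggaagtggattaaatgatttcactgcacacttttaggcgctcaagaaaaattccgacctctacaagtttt

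Among TOR genes, Thor, Rheb, Tor and S6k had promoter peaks, and raptor, rictor, Tsc1 and gig did not. Thor encodes the translation repressor 4E-BP, a target of both TOR and foxo, and had the highest signal of the group: 408 in the pooled list, 100.9 in replicate 2 and 313 in replicate 3. Its summit lies 40 bp downstream of the TSS in the 5' UTR (chr2L:3477917-3478694). Rheb, the GTPase that activates TOR, had a signal of 340.4 (82.3 and 260.2), and Tor itself 328 (81.6 and 242). S6k, a kinase that TOR phosphorylates, had a promoter signal of 212 (66.2 and 139) 12 bp downstream of its TSS (chr3L:5810789-5811017), and a stronger intronic summit (274, with 86.4 and 193) 3368 bp downstream.

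The members raptor and rictor had only candidate entries. For raptor, the defining subunit of TOR complex 1, the highest pooled promoter signal was 113 (44.1 in replicate 2 and 66.3 in replicate 3), or 69.2% of the lowest IDR signal. For rictor, the defining subunit of TOR complex 2, it was 58.2, or 35.8%, at 196 bp downstream of a TSS. The highest rictor promoter entries of the replicates had 27.9 in replicate 2 and 47.7 in replicate 3. That of replicate 2 lies at -424 bp, so 27.9 is not a value of the pooled entry. Tsc1, which holds Rheb inactive, reached 119.8 (52.9 and 64.5), or 73.6%, at an entry whose window it shares with GatB. Its partner gig, the fly TSC2, had no entry within 500 bp of a TSS in any list.

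The peaks at Rheb (chr3R:5568624-5568831) and Tor (chr2L:13004103-13004419) lie between divergent genes. The Rheb summit is 189 bp upstream of Rheb and 117 bp from the TSS of CG2931, and the Tor summit is 195 bp upstream of Tor and 178 bp from the TSS of Vha68-1, which encodes a subunit of the proton pump that acidifies lysosomes. The peak at S6k also falls within 500 bp of another TSS, that of kri, 54 bp from the summit. For these 3 genes position alone does not say which gene the peak belongs to, and Thor was the only TOR gene with a promoter peak of its own. The summit sequences of the divergent pair, at chr3R:5568682-5568782 (Rheb, plus strand, GC 19.8%) and chr2L:13004235-13004335 (Tor, plus strand, GC 26.7%), show this AT-rich intergenic sequence, with capitals as above.
Rheb: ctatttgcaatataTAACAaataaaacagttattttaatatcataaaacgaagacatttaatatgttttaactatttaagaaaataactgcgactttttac
Tor: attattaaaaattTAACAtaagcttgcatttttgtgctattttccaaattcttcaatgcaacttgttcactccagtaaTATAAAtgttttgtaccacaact

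Autophagy genes had promoter peaks at each step of the pathway, with gaps. In the kinase complex that starts autophagy, the scaffold gene Atg17 had a strong peak (780.5, with 216 in replicate 2 and 561 in replicate 3) 187 bp upstream of its TSS (chr3R:5669214-5669763). Atg13, a regulatory subunit, had a signal of 248 (106 and 153), and the kinase gene Atg1 184 (56.8 and 124), close to the lower end of the IDR list. Atg1 carried 4 further intronic IDR summits, the highest with a signal of 354 at 6085 bp downstream of its TSS (chr3L:12798698-12799399). Atg17 carried 3, the highest with a signal of 359 (chr3R:5672650-5672940). The fourth subunit, Atg101, had no pooled entry and a single entry of signal 16.0 in replicate 2, which ranked 22352.

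In the lipid kinase complex that marks the forming membrane, Vps15 (311, with 108 and 202), Atg6, the fly Beclin (273, with 73.1 and 202), and Vps34, the catalytic subunit (182, with 58.8 and 118), had promoter peaks. Atg14, which directs this complex to autophagy, had only a candidate entry at 144 (47.9 and 91.7), or 88.5% of the lowest IDR signal. Among genes for membrane supply and lipid transfer, Atg2 had the highest signal of all autophagy genes: 998, with 318 in replicate 2 and 672 in replicate 3, and ranks of 254 and 249 (chr3L:2773869-2774448). Its lipid-binding partner Atg18a reached 648 (215 and 441), 9 bp downstream of the TSS, and the membrane protein gene Atg9 353 (104 and 249). The related gene Atg18b had only an entry of 43.3 (17.7 and 29.0).

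The conjugation machinery, which attaches ubiquitin-like proteins to other proteins or to lipid, was covered in part. The protease genes Atg4b (571, with 163 and 404) and Atg4a (322, with 105 and 208), the E1-like enzyme gene Atg7 (444, with 131 and 318), the E2-like enzyme gene Atg3 (249, with 86.1 and 162), the ubiquitin-like genes Atg12 (357, with 88.1 and 267) and Atg8a (295, with 119 and 188), and Atg16 (189, with 65.1 and 117) had promoter peaks. Atg5, the protein to which Atg12 is joined, had a candidate entry only (118, with 32.1 and 92.5). Neither Atg10, the E2-like enzyme for Atg12, nor Atg8b, a second Atg8 gene, had an entry within 500 bp of a TSS in any list. Atg8a had 3 promoter summits, at 295, 249 and 204, the highest 134 bp upstream of an internal TSS. All 3 overlap the same replicate entries. The entry of replicate 2 has its summit at -119 bp, but that of replicate 3 lies 179 bp downstream of a TSS. It is away from the highest pooled summit, so 188 is not a value of that summit.

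The receptor gene ref(2)P, the fly p62, which carries ubiquitinated cargo into autophagosomes, had a signal of 194 (72.3 in replicate 2 and 124 in replicate 3), 156 bp downstream of its TSS in the 5' UTR. Mitf, a transcription factor that in flies activates lysosomal and autophagy genes, lies on chromosome 4 and had 4 pooled entries near its TSSs. The highest had a signal of 158, or 96.8% of the lowest IDR signal. The highest Mitf promoter entries of the replicates had 49.5 in replicate 2 and 116 in replicate 3. That of replicate 2 lies 405 bp downstream of a TSS, away from the pooled summit at -44 bp, so 49.5 is not a value of the pooled entry. Mitf ranked 6558 in replicate 2 and 5566 in replicate 3, and only replicate 3 placed it among its 5777 highest.

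Summit sequences are shown for autophagy genes whose peak lies off annotated UTRs, either for their signal (Atg2, Atg17 and Atg4b) or because they hold a motif searched (Atg12, Vps15, Atg3 and Atg8a). The windows, again with 50 bases on either side, are chr3L:2774057-2774157 (Atg2, plus strand), chr3R:5669476-5669576 (Atg17, plus strand), chr3R:15356999-15357099 (Atg4b, minus strand), chr3L:12136834-12136934 (Atg12, plus strand), chr3R:9245917-9246017 (Vps15, minus strand), chr3L:18748504-18748604 (Atg3, plus strand) and chrX:10767390-10767490 (Atg8a, minus strand). All but Atg12 (31.7%) and Atg8a (42.6%) have a GC content of 18.8 to 22.8%. Capitals again mark motifs.
Atg2: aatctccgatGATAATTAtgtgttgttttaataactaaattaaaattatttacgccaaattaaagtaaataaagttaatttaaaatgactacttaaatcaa
Atg17: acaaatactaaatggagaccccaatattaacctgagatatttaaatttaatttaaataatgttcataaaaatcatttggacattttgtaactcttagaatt
Atg4b: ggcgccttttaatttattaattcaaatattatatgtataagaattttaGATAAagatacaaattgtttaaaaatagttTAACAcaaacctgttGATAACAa
Atg12: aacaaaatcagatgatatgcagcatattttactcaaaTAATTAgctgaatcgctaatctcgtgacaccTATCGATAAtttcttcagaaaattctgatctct
Vps15: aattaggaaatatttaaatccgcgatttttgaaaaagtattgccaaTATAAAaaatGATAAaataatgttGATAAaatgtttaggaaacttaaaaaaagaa
Atg3: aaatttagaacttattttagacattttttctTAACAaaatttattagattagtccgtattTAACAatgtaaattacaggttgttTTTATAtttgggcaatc
Atg8a: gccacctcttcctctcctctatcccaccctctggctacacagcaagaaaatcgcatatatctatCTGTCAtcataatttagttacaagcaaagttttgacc

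Motifs were searched on both strands in the 50 bases on either side of the strongest promoter summit of each of the 28 genes and, for the background, of all 3841 IDR promoter summits. The 11 motifs searched included TATCGATA, the site of the promoter factor DREF, and GGTCACACT, the site of M1BP. TAATTA is a core bound by many homeodomains, TATAAA is the TATA box, and GAGAGAG is bound by GAGA factor. CACGTG is an E-box, and GATAA is bound by GATA factors. A short word with the letters CGATA, which is contained in the DREF site, was searched as well. So was TAACA, a word that can overlap a GATA site, as the DREF site and the homeodomain core can. The last words searched were TGACAG and, as a palindrome, ACATGT. Because motifs overlap, their counts are not independent.

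TAACA was found at 8 of 28 member summits (28.6%), beside 25.2% of all, and the GATA word at 8 (28.6%, beside 24.8%). The homeodomain core was at 3 (10.7%, beside 9.50%), namely Pi3K21B, Atg2 and Atg12. The short word within the DREF site was at 4 (14.3%, beside 21.8%), all of them autophagy genes (Atg1, Atg4a, Atg12 and Atg13), and the TATA box was at 4 (14.3%, beside 19.1%), namely foxo, Tor, Atg3 and Vps15. TGACAG was at 1, Atg8a (3.57%, beside 3.51%). These shares stood near those of all promoter summits. None of the 28 windows held the M1BP site, the GAGA site, the E-box or the palindrome, which 1.82%, 2.32%, 1.33% and 2.13% of all windows held.

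TATCGATA was at 2 of the 28 summits (7.14%, beside 3.49% of all), both of autophagy genes. At Atg12 it starts 65 bp upstream of the TSS and 18 bp from the summit. At Atg13 it starts 2 bp upstream of the TSS and 21 bp from the summit. The 30 bases around each site are given with the motif in capitals, at chr3L:12136891-12136920 and chr3R:8349802-8349831, both on the plus strand and on the strand of the gene.
Atg12 site: ctcgtgacaccTATCGATAatttcttcaga
Atg13 site: cattatcggacTATCGATActatcgcgagt

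Position and base composition went together at these promoters. The strongest summit lay upstream of the TSS at 19 of 28 genes (67.9%), with a median position of -90.5 bp, beside 79.5% and -115 bp over all 4178 genes with a promoter peak. The 13 members with a summit more than 100 bp upstream had a median GC content of 23.8%, from 17.8% at Atg7 to 45.5% at Pdk1, beside 29.7% over the 2278 genes with such a summit. The 11 with a summit within 100 bp of the TSS had a median of 43.6% (39.6% over 1517 genes), and the 4 further downstream, Lnk, Pi3K92E, Atg1 and ref(2)P, 42.1% (42.6% over 383 genes). Median signals in these 3 classes were 383, 311 and 224 for members and 365, 264 and 253 for all genes.

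**Figure D3:**
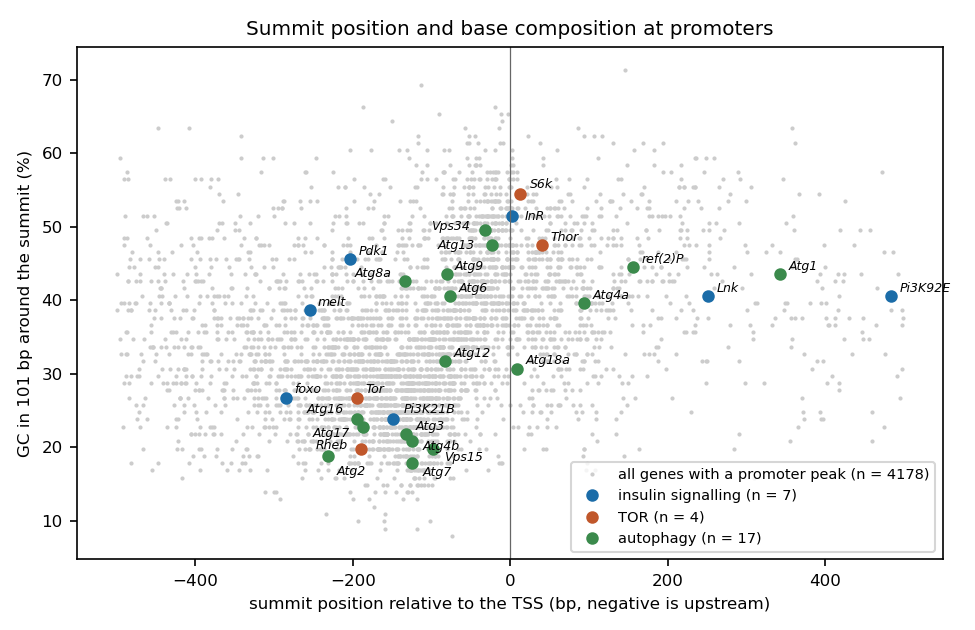
GC content in percent around the strongest promoter summit (50 bases on either side) against its position in bp from the gene's nearest TSS, for all 4178 genes with a promoter peak (grey) and the 28 members, coloured by role group. Members with a summit more than 100 bp upstream have a median GC content of 23.8%, and those within 100 bp of the TSS 43.6%.

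The role groups differed in how often the promoter was shared with another gene. A TSS of a second protein-coding gene lay within 500 bp of the strongest summit at 12 of the 28 genes (42.9%), beside 57.9% of all genes with a promoter peak. No insulin signalling gene was among the 12, while 3 of 4 TOR genes (Tor, Rheb and S6k) and 9 of 17 autophagy genes were. The autophagy pairs were Atg2 with CG12093, Atg3 with Nufip, Atg4b with Hibch, Atg6 with Pisd, Atg7 with Sec6, Atg9 with CG7747, Atg12 with CG5645, Atg17 with Xe7 and Atg18a with ERR, which encodes the oestrogen-related receptor. Each of the 12 pairs lies on opposite strands. At 5 genes (Tor, Rheb, Atg2, Atg6 and Atg7) the summit was nearer to the other gene's TSS than to the member's own. At Atg6 the distances were almost equal, 75 bp to the TSS of Pisd and 76 bp to its own. When only peaks whose window held TSSs of a single gene were counted, 16 members remained (39.0%, beside 13.2% of all genes), made up of 7 insulin signalling, 1 TOR and 8 autophagy genes.

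All 28 peaks were among the 5777 highest entries of both replicate lists. The IDR filter itself selects on reproducible rank, so this is not an independent check. Signal in replicate 3 was 2.21-fold that in replicate 2 at the median over all IDR entries. After that shift was removed, the log2 ratio of replicate 3 to replicate 2 had an SD of 0.32 over the 28 members and 0.42 over all 5760 IDR entries found in both lists. No member departed by more than 2-fold, beside 2.67% of all entries. Taking the strongest promoter peak of each gene, all 7 insulin signalling genes were below the common shift, from -0.50 at melt to -0.16 at Pi3K21B. For Lnk (-0.41) the replicate 2 entry has its summit away from the pooled summit, so its ratio does not compare the same position. Other peaks of this group lay on both sides of the shift. The Pdk1 summit downstream of its first TSS stood at 0.62, and 2 intronic peaks of InR at 0.27 and 0.30. The intronic peak of Akt stood at 0.06. A further intronic peak of InR (-0.41) and that of foxo (-0.42) lay below the shift. The TOR genes Rheb (0.52), Thor (0.49) and Tor (0.42) were above it and S6k (-0.07) near it, and autophagy genes ran from -0.62 at Atg13 to 0.46 at Atg12. At Atg8a (-0.48) the replicate 3 entry has its summit away from the pooled summit, so its ratio does not compare the same position. Members whose window held a single gene had a median of -0.25 and those with a shared window 0.15, beside -0.01 and 0.06 over all promoter entries. With 1 library per replicate these offsets have no further check.

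**Figure D4:**
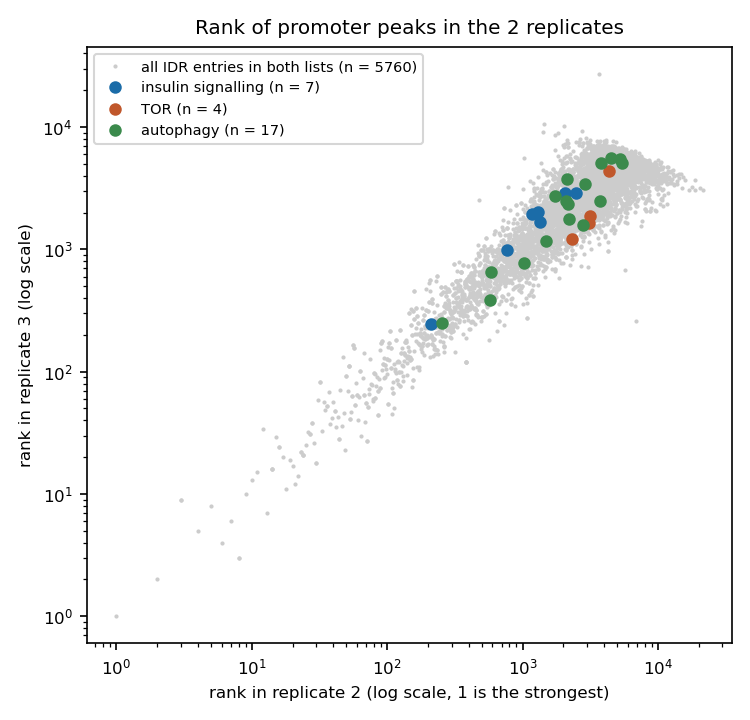
Rank of each IDR entry in replicate 2 against its rank in replicate 3 (both log scales, 1 is the strongest), for all 5760 entries found in both lists (grey) and the promoter peaks of the 28 members, coloured by role group. Pi3K21B (ranks 212 and 247) and Atg2 (254 and 249) lie at the strong end of the members.

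Within gene bodies, IDR summits more than 500 bp from any protein-coding TSS were found in 6 of the 41 genes (14.6%), beside 6.35% of all protein-coding genes. They were Atg1 with 4 summits, InR and Atg17 with 3 each, and foxo, S6k and Akt with 1 each, and all lay in introns. At Atg1 the summits of signal 354 and 262 lie in the same peak interval. Those of 196 and 165 overlap the same replicate entries, as do the Atg17 summits of 359 and 230. The summits of Atg1 and Atg17 are thus not all separate peaks. Long genes can hold more summits: of the 7 members of 10000 bp or more, 5 had such a summit, beside 28.6% of all genes of that length. The other two, Mitf (25616 bp) and Pdk1 (16446 bp), had none. The gene body of Atg7 also holds a stronger summit (1182), but it lies 20 bp from the TSS of the nested gene CG5335.

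Neighbouring summits under 300 bp apart, such as the pairs at Pi3K21B (206 bp), Atg2 (205 bp) and Pdk1 (200 bp), had a median spacing of 203 bp over the 922 such pairs in the IDR list. At each of these genes both summits overlap the same strongest entry of replicate 2 and of replicate 3, so the replicate values do not tell the summits apart.

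Other genes of the same pathways were taken from 3 lists, 70 genes in all. Of 21 genes for insulin ligands, binding proteins and other regulators, 7 (33.3%) had a promoter peak, close to the 30% of all genes. None of the 8 insulin-like peptide genes, Ilp1 to Ilp8, did. Of these, Ilp1 to Ilp5 had no pooled entry, which 61.6% of all genes had. The highest pooled entries were 149 at Ilp6, 145 at Ilp7 and 60.7 at Ilp8. The highest signal of the list was at the kinase gene sgg (899, with 275 in replicate 2 and 612 in replicate 3). Sik3, also a kinase gene, followed (349, with 94.2 and 253). Then came the phosphoprotein-binding gene 14-3-3zeta (334), the phosphatase subunit gene wdb (279) and the adaptor gene dock (242). The 14-3-3zeta and dock summits are shared with a neighbouring gene's TSS, and those of sgg, Sik3 and wdb are not.

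All 26 genes for TOR partners and nutrient sensing had a pooled entry, beside 61.6% of all genes. A promoter peak lay at 17 of them (65.4%), beside 30% of all genes. The highest were REPTOR, a transcription factor that TOR inhibits (1851, with 555 in replicate 2 and 1294 in replicate 3), Sesn, a stress-induced inhibitor of TOR (1713, with 521 and 1161), and Wdr24, a subunit of GATOR2, which counters an inhibitor of TOR (763, with 176 and 587). SNF4Agamma, the regulatory subunit of the energy sensor AMPK (722), Tctp (680.5) and RpS6, a ribosomal protein phosphorylated by S6k (538), followed. Both REPTOR and Sesn exceeded every promoter signal of the 41 genes. Sin1, a subunit of TOR complex 2, had a promoter peak near the lowest IDR signal (163, with 50.5 and 118), and Lst8, a subunit of both TOR complexes, had only a candidate entry (144). Both were named after their values were seen. The Sesn, Wdr24, Tctp, RpS6 and Sin1 summits are shared with a neighbouring gene's TSS, and those of REPTOR and SNF4Agamma are not.

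All 23 genes for autophagosome fusion, lysosomes and mitophagy also had a pooled entry, beside 61.6% of all genes. A promoter peak lay at 13 of them (56.5%), beside 30% of all genes. The highest were Mon1, part of the exchange factor for Rab7 (749.8, with 205 and 549), and the fusion protein gene Snap29 (662, with 196 and 451). Uvrag (434), BNIP3 (421), Epg5 (371) and Keap1 (350.2) followed. The Mon1, Snap29, Uvrag and Keap1 summits are shared with a neighbouring gene's TSS, and those of BNIP3 and Epg5 are not. Over the 3 lists together 37 of 70 genes (52.9%) had a promoter peak, beside 30% of all genes.

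The positions not given above, also dm6, are as follows. The autophagy peaks lie at chr3L:12804505-12805040 (Atg1), chr3L:18748545-18748683 (Atg3), chr2L:1080887-1081084 (Atg4a), chr3R:15356789-15357301 (Atg4b), chr3R:24050677-24050968 (Atg6), chr2R:18624988-18625335 (Atg7), chrX:10766938-10768367 (Atg8a) and chr2R:16294162-16294438 (Atg9). Those of Atg12, Atg13 and Atg16 are at chr3L:12136714-12136985, chr3R:8349712-8349889 and chr3R:29835028-29835563. Those of Atg18a, Vps34, Vps15 and ref(2)P are at chr3L:8186577-8187105, chr2R:23560192-23560727, chr3R:9245843-9246036 and chr2L:19542356-19542891. The Lnk peak is at chr3R:25888525-25889060. Of the 28 strongest summits, 9 lie in a 5' UTR of the member itself, at InR, Lnk, Pi3K92E, S6k, Thor, Atg1, Atg4a, Atg18a and ref(2)P.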

How the data were processed

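The data were peak lists from anti-GFP ChIP-seq of whole adult flies, 1 group of 2 biological replicates. The authors deposited them in narrowPeak layout on dm6, derived from the replicate alignments and a control alignment, per the file headers in the deposited notes. The deposited signal (narrowPeak column 7) was used as given. No source used here names the aligner or the peak caller. The lists hold no read counts, so depth is unknown. The dm3 lists were not used.

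TSSs came from all transcripts of protein-coding genes in Ensembl release 115 (BDGP6.54), with 13945 genes and 19607 distinct TSSs on 6 chromosome arms. Sequence came from the Release 6 genome of RefSeq. The median pooled signal over the 5777 IDR entries was 263. The tagged gene CG11617 had promoter summits with signals of 330.3 and 243. Replicate values are those of the highest entry that overlaps an IDR peak or, where a gene has none, of the highest entry within 500 bp of a TSS. The summit of that entry can lie away from the pooled summit.

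No test was used: the design has 1 group, and genes are not replicates. The script was tested on simulated data. The members, lists and motifs were chosen with earlier results of these data known. All members are named. Of the other pathway genes, the 6 with the highest signal per list are named, except 1 that is not reported here, and the Ilp genes were named after their values were seen. The symbols Vps18, Cp1 and CtsB1 did not match the annotation. Python 3.11.15, pandas 2.3.3 and matplotlib 3.10.9 were used.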

Additional observations from a re-analysis of the deposited data

How the results depend on the processing

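Counts of genes with a promoter peak were repeated under 8 planned settings and 1 added after the data were seen. Over the 41 genes the count of 28 became 23 with a window of 250 bp (beside 25.4% of all genes) and 30 with 1000 bp (32.8%). It stayed at 28 with canonical TSSs only (27.0%) or when any base of the peak could fall in the window (31.3%). It was 29 (30.3%) when the 5777 highest entries of replicate 3 alone replaced the IDR list. There chico and Mitf gained a promoter entry and Pi3K92E lost its own. With the 5777 highest entries of replicate 2 alone it was 28 (28.1%). IDR was not run again for these settings. Counts left the range of 1.5 times the main value in these cases. With a window of 250 bp insulin signalling genes fell from 7 to 3, as Lnk, Pi3K92E, foxo and melt were lost. Among the upper 50% of IDR entries by signal, autophagy genes numbered 11 and other pathway genes 20, beside 17.9% of all genes. With every pooled entry TOR genes numbered 7 and other pathway genes 64, beside 61.6% of all genes. Members with a summit in the gene body then numbered 19. The share of all genes with such a summit was not computed for this setting, so this count is not a result about the members. With peaks of a single gene only, counts were 16 for all members, 1 for TOR, 8 for autophagy and 18 for other pathway genes. The share of all genes was then 13.2%. Any of the 11 motifs was at 16 of 28 summits (57.1%, beside 67.8% of all promoter summits) with 50 bases on either side and at 26 (92.9%, beside 87.9%) with 100, a window that holds more sequence.

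The median promoter signal of 334 ranged from 325 to 346 over the settings for window, TSS and overlap. Of 107 single promoter signals recomputed, 4 moved by more than the replicate spread. InR rose to 813 with a window of 1000 bp or with any overlap, and with canonical TSSs only Pdk1 stood at 255 and Atg8a at 204. Of 22 single motif counts, 13 moved. No paired analysis was possible because there is 1 group. Unknown depth limits what the absence of a peak can show.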
